A study of Mus musculus with 7 samples.

Results

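The Serpina3 genes described here are Serpina3c, Serpina3f, Serpina3g, Serpina3h, Serpina3i, Serpina3m and Serpina3n, 7 of the 34947 gene names on a single-colour Agilent 60-mer mouse array. They were read through the 9 probes, of 55681, that carry those names. The members were chosen by their measured signals on these same arrays, with the differences between mouse lines in view, so their line differences are given as a description. Serpins are protease inhibitors that trap their target by a change of fold once the protease cuts an exposed loop, the reactive centre loop. A lone human gene, SERPINA3, encodes alpha-1-antichymotrypsin, a plasma protein of the acute phase. In the mouse it is represented by a cluster of tandem paralogs whose reactive centre loops have diverged. Members of the family are known to respond to interleukin 6 through STAT3, to glucocorticoids and to inflammatory cytokines, in the liver and in stromal cells.

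The series asked how dermal cells with the capacity to form muscle are related to the satellite cells from which adult muscle regenerates. It profiled 7 mouse cell populations, with 1 array per population, and each population is labelled as 1 replicate. The Sdc4+ group held CD1 Sdc4+ cells from outbred mice (Crl:CD1(ICR)), Myf5SOR+ Sdc4+ cells of a mouse carrying cre at the Myf5 locus (B6.129S4-Myf5tm3(cre)Sor/J) and Cspg4- Sdc4+ cells of Cspg4-cre transgenic mice (B6,FVB-Tg(Cspg4-cre)1Akik/J). The Sdc4- group held CD1 Sdc4- cells, B195AP+ Sdc4- cells from the B195AP-Cre line and Cspg4- Sdc4- cells. A last array held Cspg4+ cells of the Cspg4-cre line, with no Sdc4 label. Sdc4 is syndecan-4, a surface proteoglycan of satellite cells, and Cspg4 is the NG2 proteoglycan of pericytes. The labels give 8 to 10 animals per phenotype and 10 to 200 ng of RNA, and they do not give the driver of B195AP-Cre, the age of the mice or a treatment. Line and background cannot be told apart, since no line has a matched control of its own background.

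Of the fibroblast markers used for the check of cell type, 10 of 10 passed the scanner's background test on every array. Of 8 hepatocyte markers, which bear on genes best known from liver, 1 did so on every array (Apoa2, named after its values were seen), and Alb, Apoa1 and Serpina3k, which hepatocytes make in quantity, passed it on 0 of 7. Ahsg, another abundant hepatocyte product, passed it on 6 arrays, and Ttr, Fgb and Serpina1a on 1 each. The arrays had 45.9% to 57.2% of their spots well above background. On the B195AP+ array a streaked region of low signal covered 200 spot rows by 130 spot columns, and 4 of the 9 member probes (Serpina3g, Serpina3h, Serpina3m and the first Serpina3i probe) lay in it. The SD between spots of repeated probes was 0.145 log2 units on that array and 0.061 to 0.081 on the other 6. All levels below are log2 values relative to the 75th percentile of the array's own signal. Each member probe had 1 spot, was well above background on 7 of 7 arrays and was saturated on 0. In cells measured in bulk, fewer cells of a type and less RNA per cell cannot be told apart.

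The probe sequences are shown because 2 of the genes had a pair of probes that did not move together and because paralogs can share a probe. Capitals mark the bases that the Serpina3h probe and the second Serpina3i probe have in common when they are laid side by side without a gap.
Serpina3c, A_51_P157112: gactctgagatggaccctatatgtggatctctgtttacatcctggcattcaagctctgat
Serpina3f, A_55_P2104975: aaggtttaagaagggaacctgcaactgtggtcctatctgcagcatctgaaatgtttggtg
Serpina3f, A_55_P2142226: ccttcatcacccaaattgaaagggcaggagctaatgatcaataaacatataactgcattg
Serpina3g, A_51_P326191: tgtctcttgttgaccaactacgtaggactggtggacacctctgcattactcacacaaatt
Serpina3h, A_55_P2142222: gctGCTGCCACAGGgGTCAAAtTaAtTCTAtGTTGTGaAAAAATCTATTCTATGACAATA
Serpina3i, A_55_P1966774: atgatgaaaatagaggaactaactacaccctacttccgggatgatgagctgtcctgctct
Serpina3i, A_55_P2142232: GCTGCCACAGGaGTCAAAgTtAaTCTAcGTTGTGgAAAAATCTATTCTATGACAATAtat
Serpina3m, A_55_P2161410: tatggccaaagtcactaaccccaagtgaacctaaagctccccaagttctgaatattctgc
Serpina3n, A_51_P159453: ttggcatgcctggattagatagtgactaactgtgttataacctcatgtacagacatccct

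The 9 probes lie on chromosome 12 within 267 kb of each other, at mm9 coordinates per the file headers. The Serpina3c probe (NM_008458) is at chr12:105385352-105385411, on the reverse strand, and the others are on the forward strand. The first Serpina3f probe, A_55_P2104975 (NM_001168294), is at chr12:105458989-105459048, and the Serpina3g probe (NM_009251) at chr12:105480045-105480104. The Serpina3h probe (NR_033450, a transcribed pseudogene in the reference table) is at chr12:105491733-105491792. The second Serpina3f probe, A_55_P2142226, is at chr12:105492556-105492615. It lies 763 bases beyond the Serpina3h probe and 33.5 kb from the first Serpina3f probe, and its accessions in the files include NR_033450, so its signal could come from either gene. The Serpina3i probes (NM_001199940) are at chr12:105504738-105504797 for the first, A_55_P1966774, and chr12:105506705-105506764 for the second, A_55_P2142232. The Serpina3m probe (NM_009253) is at chr12:105632110-105632169 and the Serpina3n probe (NM_009252) at chr12:105651918-105651977.

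Between member probes, 1 pair was closely alike: the Serpina3h probe and the second Serpina3i probe had 51 identical bases over 57 without a gap, with a longest shared run of 22. No other probe on the array shared a run of 20 bases with a member probe. The second Serpina3f probe and the probe of Serpina3b, a neighbour that is no member, had 45 identical bases over an aligned 50. Alleles of these lines under the probes, and matches of the probes to transcripts of paralogs, were not analysed here.

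**Figure D1:**
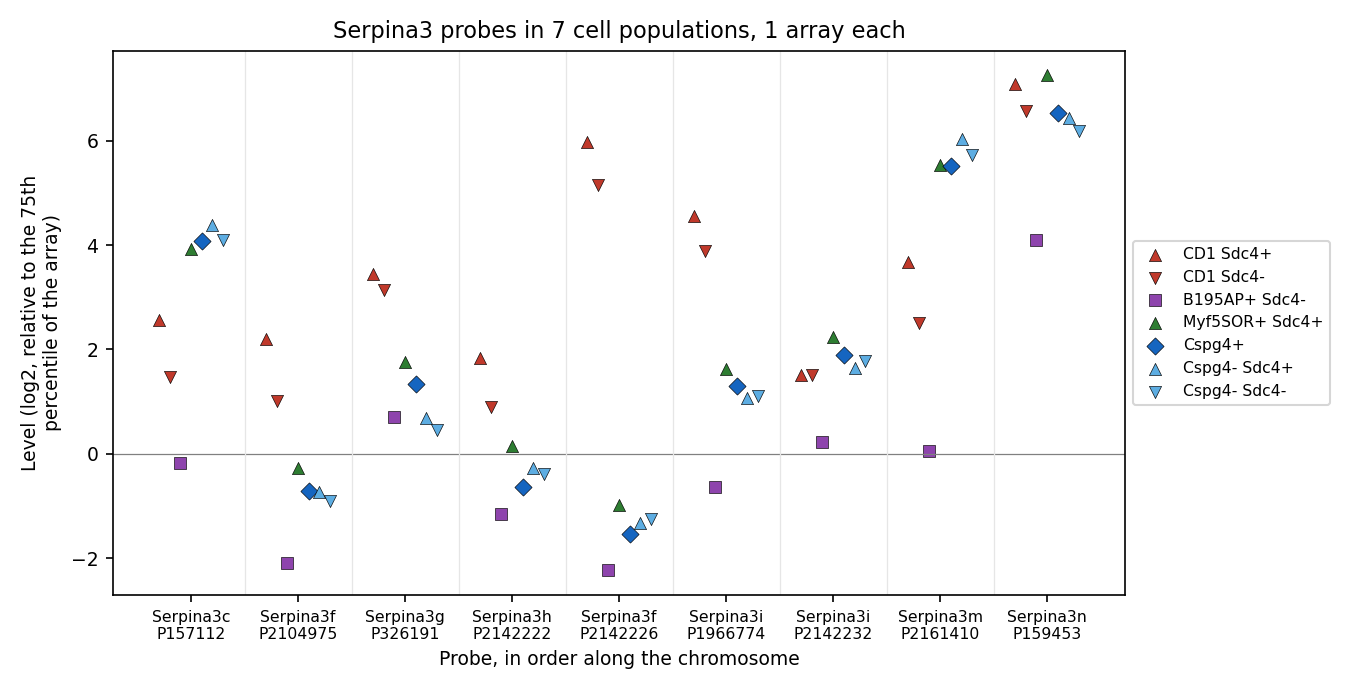
Log2 level of each Serpina3 probe (x axis, in order along the chromosome) on each of the 7 arrays, relative to the array's 75th percentile (y axis), with 1 point per population. The CD1 points stand above the others for 5 probes and below the Cspg4- points for Serpina3c, Serpina3m and, by at most 0.27, the second Serpina3i probe; the B195AP+ point is the lowest for each probe except Serpina3g.

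Members of the cluster differed between the CD1 and the Cspg4- arrays in opposite directions. Serpina3f, Serpina3g, Serpina3h and the first Serpina3i probe were higher in CD1 cells than in cells of the Cspg4- line in both Sdc4 fractions. Serpina3c and Serpina3m were lower, and Serpina3n and the second Serpina3i probe differed by under 2-fold. Of the 9 probes, 5 were at least 2-fold higher in both fractions, where 1.73% of 27261 probes were, and 2 were at least 2-fold lower, where 2.01% were. The members were chosen with these differences known, so nothing is read from these counts. With 1 array per population the differences have no replicate check.

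Serpina3g, also called Spi2A, is an inhibitor of lysosomal cathepsins that acts inside the cell and is a known target of NF-kappaB. Its level was 3.44 in CD1 Sdc4+ cells and 3.15 in CD1 Sdc4- cells, 0.70 in B195AP+ cells, 1.75 in Myf5SOR+ cells, 1.33 in Cspg4+ cells, 0.69 in Cspg4- Sdc4+ cells and 0.45 in Cspg4- Sdc4- cells. The CD1 arrays were the highest pair, followed by Myf5SOR+. B195AP+ and Cspg4- Sdc4+ differed by 0.01, within the spread of spots. CD1 cells were 6.74-fold above the Cspg4- line in the Sdc4+ fraction and 6.49-fold in the Sdc4- fraction. Myf5SOR+ cells were 2.09-fold above Cspg4- Sdc4+ cells and 3.22-fold below CD1 Sdc4+ cells.

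The first Serpina3f probe was at 2.20 in CD1 Sdc4+ and 1.02 in CD1 Sdc4- cells, -2.10 in B195AP+, -0.27 in Myf5SOR+, -0.72 in Cspg4+, -0.74 in Cspg4- Sdc4+ and -0.91 in Cspg4- Sdc4- cells. This put CD1 7.67-fold above the Cspg4- line in the Sdc4+ fraction and 3.81-fold in the Sdc4- fraction. On the second Serpina3f probe the level was 5.99 in CD1 Sdc4+ and 5.15 in CD1 Sdc4- cells, -2.23 in B195AP+, -0.98 in Myf5SOR+, -1.54 in Cspg4+, -1.33 in Cspg4- Sdc4+ and -1.26 in Cspg4- Sdc4- cells. CD1 was here 159-fold above the Cspg4- line in the Sdc4+ fraction and 84.5-fold in the Sdc4- fraction, rank 1 of 27261 probes by the mean of both log2 differences. The 5 other arrays lay within 1.26 log2 units of each other on this probe, far under the gap to the CD1 arrays.

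Serpina3h is annotated as a transcribed pseudogene. Its probe was at 1.84 in CD1 Sdc4+ and 0.89 in CD1 Sdc4- cells, -1.16 in B195AP+, 0.15 in Myf5SOR+, -0.64 in Cspg4+, -0.27 in Cspg4- Sdc4+ and -0.39 in Cspg4- Sdc4- cells. CD1 was 4.31-fold above the Cspg4- line in the Sdc4+ fraction and 2.43-fold in the Sdc4- fraction. The first Serpina3i probe was at 4.57 in CD1 Sdc4+ and 3.88 in CD1 Sdc4- cells, -0.63 in B195AP+, 1.63 in Myf5SOR+, 1.29 in Cspg4+, 1.06 in Cspg4- Sdc4+ and 1.11 in Cspg4- Sdc4- cells. CD1 was 11.3-fold above the Cspg4- line in the Sdc4+ fraction and 6.82-fold in the Sdc4- fraction. On both of these probes the CD1 arrays were the highest 2 of the 7.

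The second Serpina3i probe did not follow the first. It was at 1.51 in CD1 Sdc4+ and 1.51 in CD1 Sdc4- cells, 0.22 in B195AP+, 2.24 in Myf5SOR+, 1.89 in Cspg4+, 1.64 in Cspg4- Sdc4+ and 1.78 in Cspg4- Sdc4- cells. The log2 difference of CD1 from the Cspg4- line was -0.13 in the Sdc4+ and -0.27 in the Sdc4- fraction. This is also the probe that shares most of its bases with the Serpina3h probe printed above, on which CD1 was higher.

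Probes of 1 gene name were therefore set against each other on each array. Levels of different probes cannot be compared, so only the change of their gap between arrays is read. For Serpina3f the gap, second probe minus first, was 3.79 log2 units in CD1 Sdc4+ and 4.13 in CD1 Sdc4- cells, and -0.82 to -0.13 on the other 5 arrays. For Serpina3i it was -3.06 in CD1 Sdc4+ and -2.36 in CD1 Sdc4- cells, and 0.58 to 0.85 on the other 5 arrays. Both pairs thus stood apart on the 2 CD1 arrays, in opposite directions. The size of the CD1 difference for Serpina3f and Serpina3i depends on which probe is read. For Serpina3i its sign does too, since the second probe was slightly lower in CD1 (-0.13 and -0.27 in the Sdc4+ and Sdc4- fractions).

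**Figure D2:**
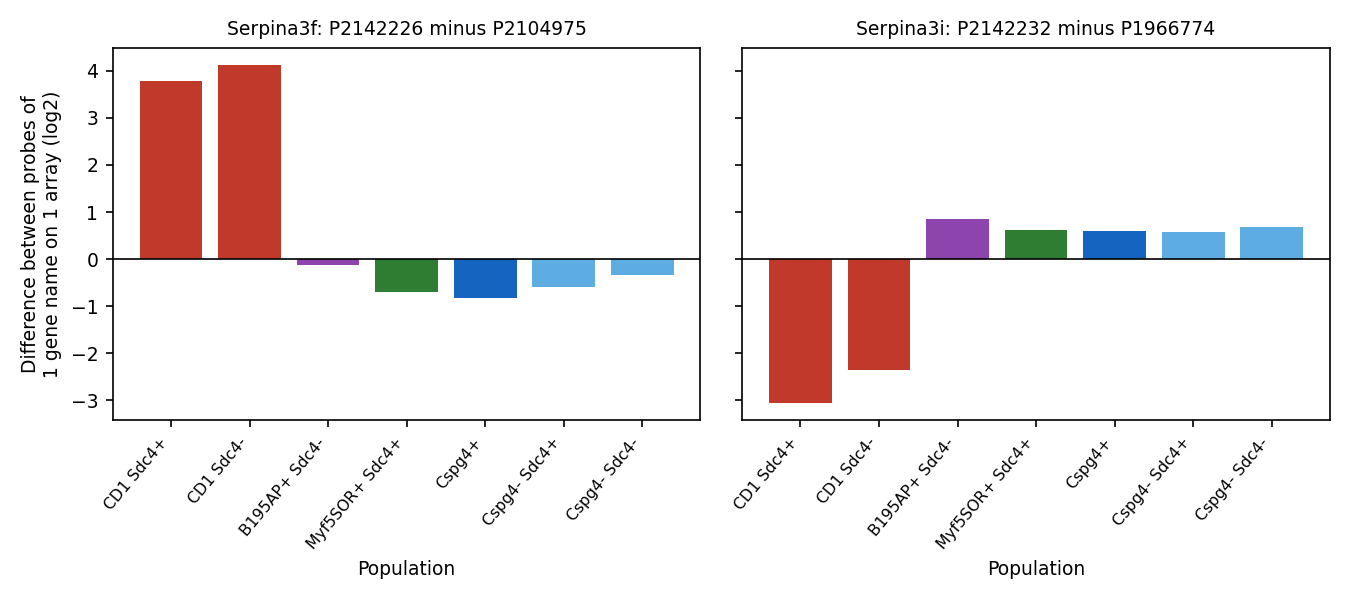
Difference between the 2 probes of Serpina3f (left) and of Serpina3i (right) on each array, in log2 units (y axis), by population (x axis), 1 bar per array. The CD1 bars reach 3.79 and 4.13 for Serpina3f and -3.06 and -2.36 for Serpina3i, while the other 5 arrays stay between -0.82 and 0.85.

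Serpina3c and Serpina3m ran the other way. Serpina3c, a secreted member that has been studied in fat cells, was at 2.57 in CD1 Sdc4+ and 1.46 in CD1 Sdc4- cells, -0.18 in B195AP+, 3.92 in Myf5SOR+, 4.07 in Cspg4+, 4.39 in Cspg4- Sdc4+ and 4.11 in Cspg4- Sdc4- cells. CD1 was 3.54-fold below the Cspg4- line in the Sdc4+ fraction and 6.24-fold below it in the Sdc4- fraction. Serpina3m was at 3.67 in CD1 Sdc4+ and 2.50 in CD1 Sdc4- cells, 0.05 in B195AP+, 5.53 in Myf5SOR+, 5.52 in Cspg4+, 6.04 in Cspg4- Sdc4+ and 5.72 in Cspg4- Sdc4- cells. CD1 was 5.18-fold and 9.29-fold below the Cspg4- line in the Sdc4+ and Sdc4- fractions. For both genes the 4 arrays of the Myf5SOR and Cspg4 lines formed the high end, within 0.52 log2 units of each other, and Serpina3m did not separate Myf5SOR+ from Cspg4+ (a difference of 0.01).

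The levels of Serpina3c and Serpina3m had a Pearson r of 0.9985 over the 7 arrays and of 0.998 over the 6 without B195AP+. Their probes share no run longer than 6 bases and lie at opposite ends of the members' stretch but for Serpina3n. Probes were compared with probes only, so this does not tell whether 1 transcript could bind both. Serpina3f, Serpina3g, Serpina3h and the first Serpina3i probe had r between 0.906 and 0.989 with each other over the 7 arrays. The 2 CD1 arrays hold most of that spread, and arrays of 1 line share their background. Without the 2 CD1 arrays, Serpina3g had r of 0.410 to 0.575 with the other probes of this set. Those others had r of 0.878 to 0.989 with each other.

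**Figure D3:**
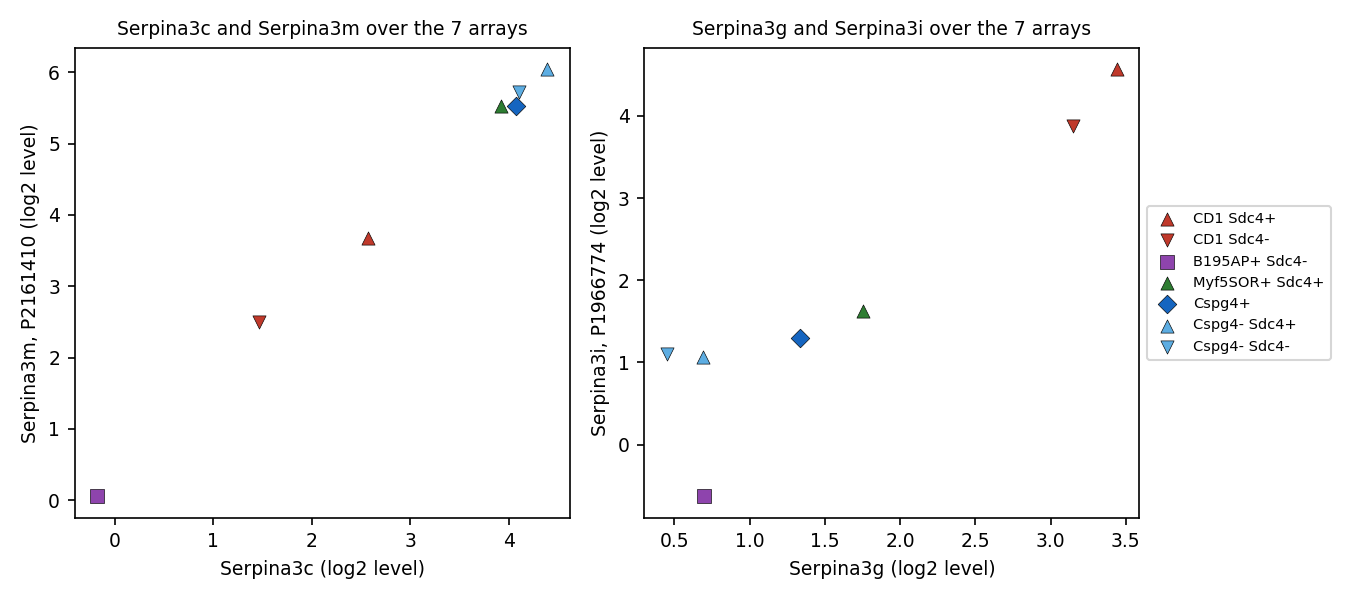
Log2 level of Serpina3m against Serpina3c (left) and of the first Serpina3i probe against Serpina3g (right), 1 point per population. On the left the CD1 points lie between B195AP+ and the other 4, and on the right they lie above the other 5 on both axes.

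Serpina3n, an inhibitor of granzyme B and leukocyte elastase in the mouse and a marker of reactive astrocytes, was at 7.09 in CD1 Sdc4+ and 6.57 in CD1 Sdc4- cells, 4.11 in B195AP+, 7.25 in Myf5SOR+, 6.53 in Cspg4+, 6.44 in Cspg4- Sdc4+ and 6.18 in Cspg4- Sdc4- cells. CD1 exceeded the Cspg4- line 1.57-fold in the Sdc4+ and 1.31-fold in the Sdc4- fraction. The neighbours CD1 Sdc4- and Cspg4+ differed by 0.04, within the spread of spots.

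**Figure D4:**
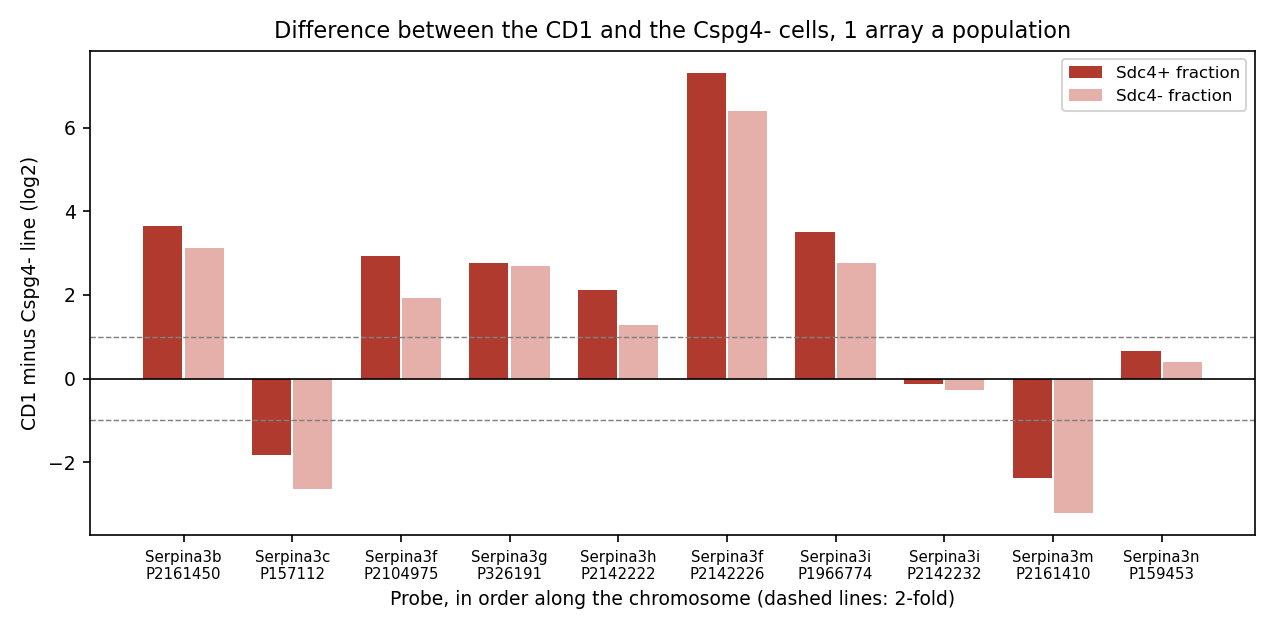
CD1 minus Cspg4- line difference in log2 units (y axis) for each member probe and for Serpina3b (x axis, in order along the chromosome), as 1 bar for the Sdc4+ and 1 for the Sdc4- fraction, each from 1 array per side. The bars of a probe agree in sign between fractions, and those of the second Serpina3f probe reach 7.32 and 6.40.

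Members of the cluster outside the 7 genes were read the same way. Serpina3b was at 2.09 in CD1 Sdc4+ and 1.37 in CD1 Sdc4- cells, -1.68 in B195AP+, -1.30 in Myf5SOR+, -1.41 in Cspg4+, -1.55 in Cspg4- Sdc4+ and -1.75 in Cspg4- Sdc4- cells. CD1 was 12.5-fold above the Cspg4- line in the Sdc4+ and 8.75-fold in the Sdc4- fraction. The probes of Serpina3a, Serpina3j and Serpina3k were well above background on 0 or 1 array each. Serpina3c, lower in CD1, thus lies between Serpina3b and Serpina3f, which were higher.

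Promoters are shown for members that were higher together in CD1 cells: Serpina3f, Serpina3g and, on its first probe only, Serpina3i. Promoters of Serpina3c and Serpina3n are shown too, since these are the most alike in promoter and the genes were not at least 2-fold higher there. They are the 250 bases before the start, 5′ to 3′, from RefSeq on GRCm38.p6. The probe coordinates above are on another build and cannot be set beside them. Capitals mark matches to a STAT motif, TTCNNNGAA, on either strand (its letters are the same on both).
Serpina3f, chr12:104214294-104214543, plus strand: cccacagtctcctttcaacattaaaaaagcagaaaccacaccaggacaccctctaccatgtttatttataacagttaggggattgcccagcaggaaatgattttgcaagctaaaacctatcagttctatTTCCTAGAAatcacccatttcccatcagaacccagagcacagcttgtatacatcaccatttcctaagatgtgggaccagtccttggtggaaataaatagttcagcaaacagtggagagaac
Serpina3g, chr12:104235897-104236146, plus strand: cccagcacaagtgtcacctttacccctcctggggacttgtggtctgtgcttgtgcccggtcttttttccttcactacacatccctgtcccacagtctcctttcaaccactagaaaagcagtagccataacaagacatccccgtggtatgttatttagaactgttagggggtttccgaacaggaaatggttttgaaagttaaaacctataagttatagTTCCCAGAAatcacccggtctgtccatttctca
Serpina3i, chr12:104262872-104263121, plus strand: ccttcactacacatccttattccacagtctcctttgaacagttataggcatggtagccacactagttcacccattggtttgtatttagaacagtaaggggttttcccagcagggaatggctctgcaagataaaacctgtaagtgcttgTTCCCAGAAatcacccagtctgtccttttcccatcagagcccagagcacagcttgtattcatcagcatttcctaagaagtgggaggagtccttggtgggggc
Serpina3c, chr12:104153873-104154122, minus strand: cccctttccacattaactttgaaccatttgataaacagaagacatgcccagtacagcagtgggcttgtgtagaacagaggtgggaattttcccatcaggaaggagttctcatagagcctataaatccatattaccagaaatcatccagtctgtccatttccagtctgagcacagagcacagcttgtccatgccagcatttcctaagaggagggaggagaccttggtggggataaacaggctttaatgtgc
Serpina3n, chr12:104406458-104406707, plus strand: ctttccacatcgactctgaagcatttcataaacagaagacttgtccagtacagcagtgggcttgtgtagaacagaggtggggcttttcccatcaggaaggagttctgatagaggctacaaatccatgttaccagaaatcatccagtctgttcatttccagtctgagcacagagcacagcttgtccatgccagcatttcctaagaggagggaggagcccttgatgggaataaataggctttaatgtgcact

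Of the members, 5 matched the promoter table, and Serpina3h and Serpina3m are only named here. The STAT motif was found once each in the promoters of Serpina3f (TTCCTAGAA, bases -121 to -113 from the start), Serpina3g (TTCCCAGAA, -33 to -25) and Serpina3i (TTCCCAGAA, -102 to -94). Serpina3f has another annotated start, not shown, from which the same match lies at -210 to -202. The motif was found 0 times for Serpina3c and Serpina3n and for Serpina3b, which was also higher in CD1. Of 32536 mouse promoters of this length, 7.04% held it. The promoters of Serpina3f and Serpina3i were 80.8% identical over 219 aligned bases and those of Serpina3c and Serpina3n 92.7% over 247, so the matches in alike promoters are not separate observations. A match describes these letters only.

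B195AP+ cells were at the low end of the cluster. The B195AP+ array was at least 2-fold below the lowest of the other 6 arrays for 6 of the 9 probes, where 5.07% of probes were. Among the 5 member probes outside the streaked region it was so for 4 (Serpina3c, Serpina3n, the first Serpina3f probe and the second Serpina3i probe), where 1.11% of 15969 such probes were. Against Cspg4- Sdc4- cells, B195AP+ cells were 19.4-fold lower for Serpina3c, 4.21-fold for Serpina3n, 2.28-fold for the first Serpina3f probe and 2.96-fold for the second Serpina3i probe. Inside the region, itself of low signal, Serpina3m was 50.9-fold, the first Serpina3i probe 3.33-fold and Serpina3h 1.72-fold lower. Serpina3g was 1.19-fold higher. These low levels rest on 1 array, on which the members were also chosen.

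Cells of the Cspg4-cre line differed little by Cspg4. Cspg4+ minus Cspg4- Sdc4- differences were between -0.28 and 0.35 for 8 of the 9 probes and 0.88 (1.84-fold) for Serpina3g. Set against Cspg4- Sdc4+ cells they were between -0.52 and 0.25 for those 8 probes and 0.65 for Serpina3g.

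The Sdc4+ and Sdc4- groups were compared by limma over all probes, with Benjamini-Hochberg adjustment. 0 of the 9 member probes passed an adjusted p of 0.05, where 0.00367% of probes did (1 of 27261, a transcript probe that is no member), and 0 of the 9 passed an unadjusted p of 0.05, where 2493 probes did. The estimates were above 0 for the 9 probes, with a median of 0.97 log2 units, against a median of -0.02 over all probes, of which 47.4% were above 0. In 0 of 9 did the 3 Sdc4+ arrays stand clear of the 3 Sdc4- arrays, where 7.51% of probes did so upwards and 8.84% downwards. The estimates share the B195AP+ array, low for most of the cluster, on the Sdc4- side. For 4 of the 9 probes (Serpina3g, the second Serpina3f probe and both Serpina3i probes) the estimate fell below 0 in at least 1 alternative setting.

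Serpina3n averaged 6.93 ± 0.43 in Sdc4+ and 5.62 ± 1.32 in Sdc4- cells (SD, n = 3 each), an estimate of 1.31 (SE 0.65, limma adjusted p = 0.594). Serpina3m averaged 5.08 ± 1.25 in Sdc4+ and 2.76 ± 2.84 in Sdc4- cells (SD, n = 3 each), an estimate of 2.32 (SE 1.41, limma adjusted p = 0.665). Serpina3c averaged 3.63 ± 0.95 in Sdc4+ and 1.80 ± 2.16 in Sdc4- cells (SD, n = 3 each), an estimate of 1.83 (SE 1.07, limma adjusted p = 0.653). These groups overlapped: the Sdc4- group held the lowest array, B195AP+, while its Cspg4- array was in the upper part of the range for Serpina3c and Serpina3m, and CD1 Sdc4- lay above Cspg4- Sdc4+ for Serpina3n. Without the B195AP+ array the estimates were 0.55 for Serpina3n, 0.97 for Serpina3m and 0.84 for Serpina3c, and with the line as a fixed block 0.39, 0.75 and 0.70. Without the Cspg4- Sdc4- array they were 1.59, 3.80 and 2.99. The other 6 probes differed by 0.53 to 1.06 (limma adjusted p = 0.703 to 0.950). The widest interval was that of the second Serpina3f probe, -5.54 to 6.89 around 0.67, since each group holds 1 CD1 array.

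Both fractions were profiled in CD1 and in the Cspg4- line. In CD1 the Sdc4+ minus Sdc4- difference was 1.11 for Serpina3c, 1.17 for Serpina3m, 1.18 for the first Serpina3f probe and 0.52 for Serpina3n, and it was above 0 for 8 of the 9 probes. In the Cspg4- line it was 0.29, 0.32, 0.17 and 0.26 for the same probes and ran from -0.14 to 0.32 over the 9. No population has a second array, so these p-values rest on the variation among mouse lines. On the slide, row 1 carried the Sdc4+ arrays and row 2 the remaining 4, so row and fraction cannot be told apart.

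**Figure D5:**
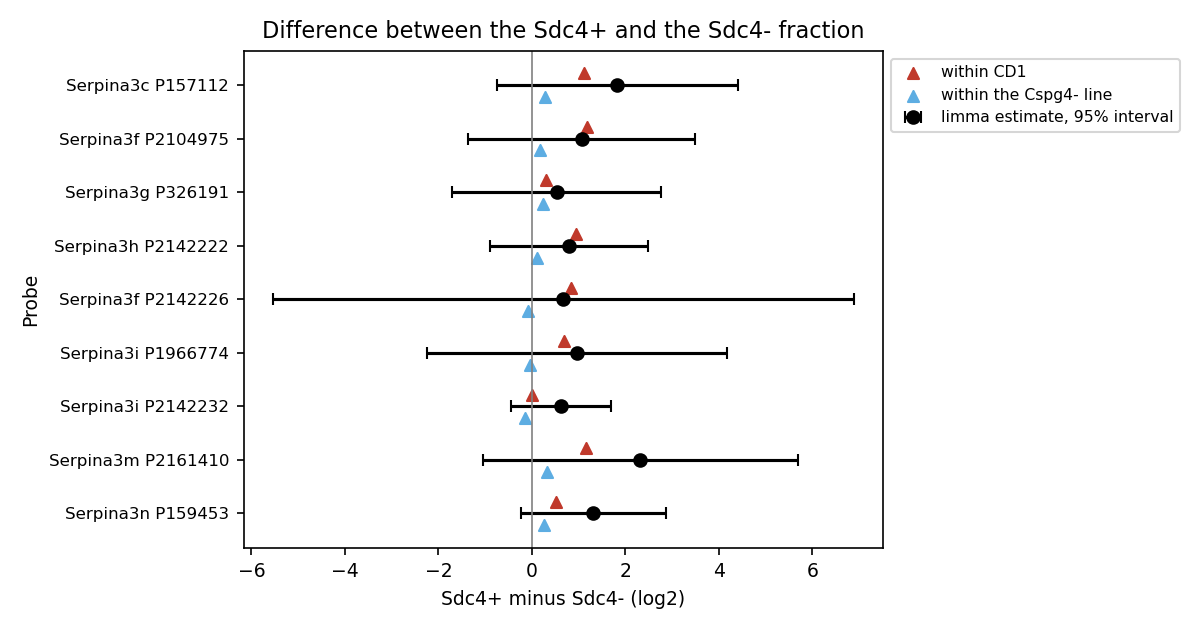
Sdc4+ minus Sdc4- difference of each member probe in log2 units (x axis), as the limma estimate over 3 arrays against 3 with its 95% interval (black) and as the difference within CD1 (red) and within the Cspg4- line (blue), 1 array a side. The 9 intervals include 0, and the blue points lie between -0.14 and 0.32.

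Genes of the pathways that are known to govern the family were read from lists chosen with earlier results of these data known. Of 28 measured genes of the acute phase and of interleukin 6 and STAT3 signalling, 4 were at least 2-fold higher in CD1 than in the Cspg4- line in both fractions and 0 lower (14.3%, against 1.75% of 19745 names), with a median difference of 0.15 against -0.04 over all names. The 4, named after their values were seen, were Saa1, Saa3, Hp and C3, which encode serum amyloids, haptoglobin and complement component 3. Saa3 was at 8.18 in CD1 Sdc4+ and 7.13 in CD1 Sdc4- cells, against 6.72 in Cspg4- Sdc4+ and 6.02 in Cspg4- Sdc4- cells. Hp was at 5.55 in CD1 Sdc4+ and 4.74 in CD1 Sdc4- cells, against 4.22 in Cspg4- Sdc4+ and 3.46 in Cspg4- Sdc4- cells. Il6 and Stat3 were also looked up after values were seen: Il6 was higher in CD1 by 0.58 in the Sdc4+ and by 2.40 in the Sdc4- fraction, and Stat3 differed by -0.19 and 0.03.

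Several genes of this list were also low in B195AP+ cells. Saa2, an acute phase serum amyloid, was at -4.04 in B195AP+ cells, against -0.34 in Cspg4- Sdc4- cells. Il6ra, a chain of the interleukin 6 receptor, was at 0.43 in B195AP+ cells, against 3.74 in Cspg4- Sdc4- cells, but its spot lies in the streaked region. The list's median for B195AP+ minus Cspg4- Sdc4- was -0.50, against 0.14 over all names. Hpx, the heme carrier hemopexin, was at -4.61 in B195AP+ and -2.33 in Cspg4- Sdc4- cells, with its spot also in that region. Itih4, an acute phase inhibitor of the inter-alpha-trypsin family, ran the other way, at -5.35 and -6.02. It was well above background on only 4 arrays. For the Sdc4 contrast the list's median was 0.48, with 0 of 28 called by limma.

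Of 17 measured genes of the interferon gamma response, 0 were at least 2-fold higher and 4 lower in CD1 than in the Cspg4- line in both fractions (23.5%, against 1.90% of all names), with a median of -0.30. The other 13 passed in neither direction. Among the 4 that were lower, and named after their values were seen, were Gbp2, Gbp3 and Igtp, which are interferon-induced GTPases. Gbp3 was at -0.94 in CD1 Sdc4+ and -1.48 in CD1 Sdc4- cells, against 1.91 in Cspg4- Sdc4+ and 1.72 in Cspg4- Sdc4- cells. Igtp was at 0.31 in CD1 Sdc4+ and 0.17 in CD1 Sdc4- cells, against 1.92 in Cspg4- Sdc4+ and 1.96 in Cspg4- Sdc4- cells. Cxcl10, an interferon-induced chemokine, differed by -2.60 in the Sdc4+ and -0.34 in the Sdc4- fraction, and Cd74, the invariant chain of class II antigen presentation, by 1.98 and 0.42.

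Of 12 glucocorticoid response genes, 0 were 2-fold higher or lower in CD1 in both fractions, with a median of -0.18. Fkbp5 and Sgk1, direct targets of the glucocorticoid receptor, differed by -0.08 and -0.78 in the Sdc4+ and by -0.49 and 1.39 in the Sdc4- fraction. Tsc22d3, another such target, and Hsd11b1, which regenerates active glucocorticoid, differed by 0.11 and 0.10 in the Sdc4+ and by -0.50 and -0.43 in the Sdc4- fraction. Of 11 measured proteases that such serpins or their relatives meet, 0 passed 2-fold in both fractions in either direction. Ctsk, a lysosomal cathepsin, differed by -0.20 and -0.57, and Prtn3, a neutrophil serine protease, by -1.35 and -0.10 in the Sdc4+ and Sdc4- fractions. Plau, the urokinase plasminogen activator, differed by -1.45 and -0.09. Mmp9, a gelatinase, was at -1.86 in CD1 Sdc4+ and -1.19 in CD1 Sdc4- cells, against -2.79 in Cspg4- Sdc4+ and -2.69 in Cspg4- Sdc4- cells. Of 12 other measured serpins, Serpina3b alone was 2-fold higher in both fractions and 0 were lower. Serpine2, an inhibitor of plasminogen activators and thrombin, differed by 0.69 in the Sdc4+ and 0.16 in the Sdc4- fraction, and Serpinb9, a granzyme B inhibitor, by -0.99 and -0.16.

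Markers of other cells were read beside the CD1 difference. Of 10 macrophage and myeloid markers, 6 were measured and 2 (Aif1 and Cd14, named after their values were seen) were at least 2-fold higher in CD1 in both fractions. Cd68, Csf1r, Itgam and Cd14 were well above background on 7 of 7 arrays, Aif1 on 5, Fcgr3 on 3, Adgre1 and Tyrobp on 1, and Ptprc and Lyz2 on 0. The summed linear signal of the list was 40.9 to 41.5 on the CD1 arrays and 53.5 to 59.2 on the Cspg4- arrays. Most of the sum came from Itgam, and without it the sum was 17.2 in CD1 Sdc4+ and 12.4 in CD1 Sdc4- cells, against 13.8 in Cspg4- Sdc4+ and 9.83 in Cspg4- Sdc4- cells. Their part in the result was not tested. The summed signal of the skeletal muscle markers was 22.9 on the CD1 Sdc4- array, against 1.15 to 6.80 on the other 6. That of the fibroblast markers was 787 and 964 on the CD1 Sdc4+ and Sdc4- arrays, against 1330 and 1131 on the Cspg4- ones. Its brightest genes were Dcn and Col1a2. In the same order, Dcn was at 8.17 and 8.41 in CD1 and at 8.97 and 8.63 in the Cspg4- line. The 75th percentile subtracted was higher on the CD1 arrays (242 and 212, against 129 and 178). Saturation of these bright spots was not tested, so the fibroblast sums do not tell whether CD1 cells held less of this RNA.

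Likeness was taken over the 7 arrays as Pearson's r among 2659 probes well above background on at least 4 arrays and with a range of at least 2 log2 units. Phox2a (0.960), Serpina3b (0.959), Car12, S100a8 (0.945), Mid1, Galnt17 and Camp (0.932) were among the 8 most like Serpina3g. For Serpina3n the 8 began with Sipa1l2 (0.993), and 7 of them had their B195AP+ spot in the streaked region. Without the B195AP+ array, an alternative chosen after seeing the data, Clca3a1 (0.976), Tmem35a (0.972), Gprin1 (0.960) and Hp (0.942) were the 4 most like Serpina3n among 1524 probes. The coefficients describe 7 or 6 arrays, 2 of them of CD1 mice, which share their background.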

How the data were processed

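The Agilent Feature Extraction files of the 7 arrays hold background-corrected processed intensity per spot, as deposited by the authors, read in 1 colour per the file headers. A table of log2 values of the same arrays was also deposited and served as an alternative; the submitters' processing notes name lumi, with no version. The build of the probe coordinates is mm9 per the file headers.

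Processed intensities were put on a log2 scale and the 75th percentile of each array was subtracted. Control and outlier spots were left out and spots of a probe averaged. The 27261 probes that passed the scanner's background test on 3 or more arrays entered limma 3.58.1 (R 4.3.3) with 3 group means, the Cspg4+ array included, and Benjamini-Hochberg adjustment at 0.05. The procedure was tested on simulated data with independent noise, a capped spread and no lines, which does not show how it performs on these arrays. CD1 against the Cspg4- line has 1 array a side and no test. Text names every member probe, for each list up to 4 genes with the largest range (above background on 4 arrays), and the 8 most like genes; for space some of the last are left out. Some genes that this rule or a count would name are not reported here. The members, the lists and the bounds of the streaked region were chosen with earlier results of these data known. The number of arrays limits the precision, and 1 array per population leaves animals, cells and hybridisation inseparable.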

Additional observations from a re-analysis of the deposited data

Results flagged for a closer look

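For 2 probes the difference between the Sdc4+ and the Sdc4- fraction had opposite signs in the 2 lines that were profiled in both fractions. The shared probe of Serpina3f, A_55_P2142226, differed by 0.84 log2 units in CD1 and by -0.074 in the Cspg4- line. The first Serpina3i probe differed by 0.69 in CD1 and by -0.044 in the Cspg4- line. The difference between lines was not tested, with 1 array on each side. The SD between spots of 1 array was 0.081 log2 units on the Cspg4- Sdc4+ and 0.068 on the Cspg4- Sdc4- array. The differences in the Cspg4- line were within this spread of spots, so their sign is uncertain.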

How the results depend on the processing

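CD1 minus Cspg4- differences of the 9 probes kept their direction in the alternatives run, each fraction alone included. 4 values moved by over the SD of the 2 fractions, which are no replicates: the second Serpina3f probe was at 5.95 after normexp correction and 6.08 in the deposited series table (6.86 as reported, the mean of both fractions), and Serpina3g at 2.54 and 2.40 (2.73). A fraction alone can never pass this mark. Larger shifts than that of Serpina3g also stayed under it: the first Serpina3f probe was at 1.81 after normexp correction (2.43 as reported).

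For Sdc4+ against Sdc4-, 0 of the 9 probes passed under any setting. The count of all probes called was 1 as reported and 0 with normexp, with probes well above background on all 7 arrays, with 1 probe per gene name, with the line as a fixed block, without the streaked region, without both CD1 arrays (an alternative chosen after seeing the data) and without each replicate in turn (0 to 0). It was 3 with the line as a random block. For the second Serpina3f probe the value turned to -1.13 with array weights, and without 1 replicate it ranged from -1.71 to 2.97, being at -1.71 without CD1 Sdc4+, -0.72 without B195AP+ and -0.23 without Cspg4- Sdc4-. Serpina3g was at -0.12 with array weights and at -0.21 without CD1 Sdc4+ (at most 1.39 without 1 replicate). The first Serpina3i probe was at -0.093 with array weights, -0.11 without CD1 Sdc4+ and -0.073 without B195AP+ (at most 2.18 without 1 replicate). Leaving out the streaked region removes its only B195AP+ spot, so that setting is the same one for this probe and also gave -0.073. The second Serpina3i probe was at -0.074 with the line as a fixed block. The cause was not tested. Every population is labelled replicate 1, so the replicate number pairs nothing; the line, which CD1 and the Cspg4- line give to both groups, was the block used (consensus correlation 0.554).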
